A study of Mus musculus with 6 samples.

Results

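The genes described here are the 6 members of the CCN family, Ccn1 to Ccn6, with the transcriptional coactivators Yap1 and Wwtr1 (the gene of TAZ) and the DNA-binding factors Tead1 and Tead4, 10 genes of the 47643 in the count table. They were measured by RNA sequencing in the entire aorta of Apoe-/- mice. The EPO group (3 libraries) received recombinant human erythropoietin, the hormone that drives red cell production, injected intraperitoneally at 5000 IU per kg daily, which the series calls a medium dose; its title names abdominal aortic aneurysm as the question. The Vehicle group (3 libraries) received saline by the same route, and both groups were treated for 4 weeks. Mice of both groups lack apolipoprotein E and so have raised plasma cholesterol and develop atherosclerosis; a group without this deletion was not analysed here, and neither age nor sex is given in the sources used here. No label says that each library came from its own animal, so the errors measure the spread between these 6 libraries.

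The 10 genes were looked up by symbol, and all 10 were found. They were chosen from earlier results of these same libraries, in which EPO had been set against Vehicle, so their differences between the groups are given as a description. They were part of the fit over all genes, and its calls of them are counted once and support nothing. Only genes outside this set are given with a p-value, from the fit over all genes. Their lists were also drawn up with earlier results of these data known, so the counts called per list are a description too.

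CCN proteins are cysteine-rich proteins secreted into the extracellular matrix, where they bind integrins, proteoglycans and growth factors and modify how cells attach, divide and lay down matrix. YAP and TAZ are coactivators with no DNA-binding domain of their own. When the kinases of the Hippo pathway are inactive, or when cells are spread on a stiff matrix, they enter the nucleus and bind TEAD factors, and Ccn1 and Ccn2 are the most widely used readouts of that complex. In the vessel wall, CCN genes are expressed by smooth muscle cells, fibroblasts and endothelial cells.

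The DNA site of TEAD factors has the core CATTCC, read GGAATG on the other strand. RefSeq promoter windows of 300 bases (250 before to 50 after a transcription start, GRCm38.p6) were at hand for 4 of the 10 genes, Ccn1, Ccn6, Yap1 and Wwtr1. The core was searched on both strands and found in 3 of these 4, all but Ccn6, while 16.6% of the 27025 genes with a window, and 14.7% of all 32851 windows, hold it. The windows are shown because they hold these letters beside the start of a readout gene and of both coactivator genes. Capitals mark the core. The Ccn1 window covers chr3:145649936-145650235 (minus strand) with the core 103 to 98 bases before the start, and the stretches of 60 bases from Yap1 (chr9:8004705-8004764, minus strand) and Wwtr1 (chr3:57576014-57576073, minus strand) hold cores 141 to 136 and 136 to 131 bases before a start.
Ccn1: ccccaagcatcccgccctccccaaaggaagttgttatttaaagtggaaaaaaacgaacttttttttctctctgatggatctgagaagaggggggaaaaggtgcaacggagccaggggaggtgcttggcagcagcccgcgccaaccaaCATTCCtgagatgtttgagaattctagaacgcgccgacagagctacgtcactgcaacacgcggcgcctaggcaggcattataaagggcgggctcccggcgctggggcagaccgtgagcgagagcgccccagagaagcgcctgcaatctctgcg
Yap1: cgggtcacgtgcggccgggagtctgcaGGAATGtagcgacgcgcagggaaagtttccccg
Wwtr1: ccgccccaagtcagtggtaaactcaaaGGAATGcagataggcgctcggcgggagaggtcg

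A match of these letters describes the window; binding was not measured. The CArG box of the serum response factor SRF, which also acts on CCN promoters, was searched in the same way and had no match in the 5 windows of these 4 genes, against 1.63% of all windows.

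The total count was 28798632 to 38502430 in the EPO libraries and 23278649 to 27904322 in the Vehicle libraries. Levels are given as CPM, a gene's count relative to the library size scaled by the TMM method, and errors are SDs over 3 libraries unless named otherwise. The libraries were not alike within the EPO group: the second principal component of all genes (16.0% of the variance) set EPO 1 apart from EPO 2 and EPO 3. Markers of some other cell types differed between the groups, while the sums of red cell and endothelial genes overlapped. The sum of 6 skeletal muscle fibre genes was 890.0, 2309 and 234 CPM in EPO 1, 2 and 3, against 5.17 to 12.1 CPM in Vehicle. The sum of 5 macrophage genes was 5262, 3213 and 2834 CPM in EPO 1, 2 and 3, against 1280 to 2652 CPM in Vehicle. EPO 3 was thus close to the highest Vehicle value, and 1 of the 5 genes was called. Because the aorta was taken whole, fewer cells of a type and less RNA per cell cannot be told apart.

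Of the 10 genes, 9 passed the filter on low counts and entered the fit over all genes. Ccn4 was much higher with EPO, Ccn3 lower, and Ccn1 and Ccn2, the usual readouts of YAP and TAZ, had overlapping values. Ccn4 averaged 112 ± 15.5 CPM in EPO and 11.3 ± 1.89 CPM in Vehicle, 9.83-fold higher in the fit. Ccn3 averaged 427 ± 163 CPM in EPO and 1020 ± 142 CPM in Vehicle, 2.39-fold lower. With edgeR's quasi-likelihood test and a threshold of 0.05 on the adjusted p, 1 of the 9 was called higher (Ccn4) and 1 lower (Ccn3), while 23% of the 16522 genes tested were called, 12.9% of them higher and 10.1% lower as shares of all tested. The values did not overlap between groups in 5 of the 9, against 43.8% of all genes tested. Ccn3 leaves this count without EPO 2, Vehicle 1, Vehicle 3 or both EPO 1 and EPO 2, and Ccn5 enters it without EPO 3, with DESeq2 or with no filter on low counts. Nothing is read from these counts, since the same contrast was known when the genes were chosen.

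**Figure D1:**
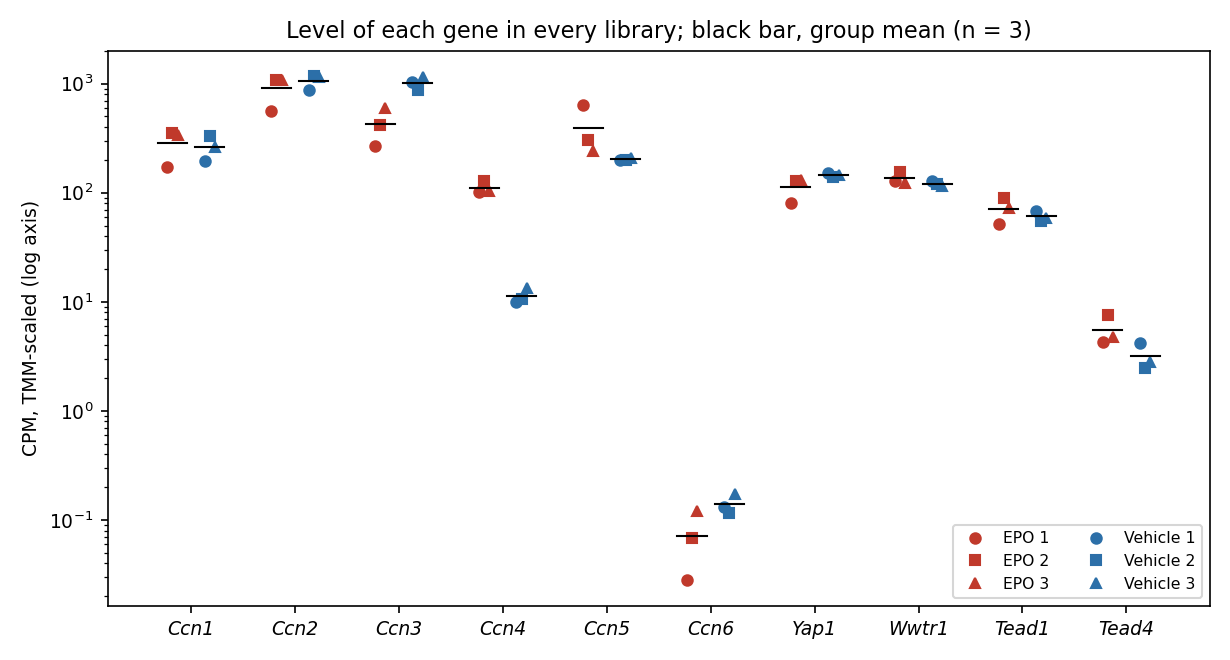
Level of each of the 10 genes in CPM (log axis) in the EPO libraries (red, left) and the Vehicle libraries (blue, right), with 1 symbol per replicate number and a black bar at the group mean (n = 3). Ccn4 stands at 101 to 129 CPM in EPO and 9.95 to 13.5 CPM in Vehicle, while Ccn1, Ccn2, Wwtr1 and Tead1 overlap.

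Ccn1 and Ccn2 are immediate responses to growth factors, stretch and YAP. Ccn1, formerly Cyr61, promotes the attachment and growth of endothelial cells (ENSMUSG00000028195, GRCm38 chromosome 3, 145646976 to 145649981). It stood at 171, 351 and 337 CPM in EPO 1, 2 and 3, against 195, 332 and 264 CPM in Vehicle 1, 2 and 3. The lowest and the highest of the 6 values were both in the EPO group. The log2 fold change was 0.12 (SE 0.31), and it was 0.37 without EPO 1 and -0.08 without Vehicle 1, so its sign rested on single libraries.

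Ccn2, formerly Ctgf, promotes matrix production by fibroblasts (ENSMUSG00000019997, chromosome 10, 24595442 to 24598683). It stood at 565, 1083 and 1070 CPM in EPO 1, 2 and 3, against 866, 1176 and 1155 CPM in Vehicle 1, 2 and 3. EPO 1 was the lowest of all, and EPO 2 and EPO 3 lay within the Vehicle range. The log2 fold change was -0.23 (SE 0.28) with all libraries and 0.00 without EPO 1. The counts may hold reads of Gm15270, a gene model on the opposite strand that shares 665 exon bases and had at most 14 counts in a library, against 19934 or more for Ccn2.

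Ccn3, formerly Nov, is best known in vessels as a product of smooth muscle cells that restrains their growth (ENSMUSG00000037362, chromosome 15, 54745702 to 54754039). It stood at 271, 414 and 596 CPM in EPO 1, 2 and 3, against 1030, 873 and 1156 CPM in Vehicle 1, 2 and 3. The EPO values were spread over more than the Vehicle values and all lay below them. The log2 fold change was -1.26 (SE 0.29) with all libraries and -0.77 without EPO 1 and EPO 2. It was -1.23, -1.27 and -1.16 without EPO 2, Vehicle 1 and Vehicle 3 in turn. Smooth muscle markers moved with it: the sum of 5 such genes was 7012, 7093 and 8765 CPM in EPO 1, 2 and 3, against 18865 to 26952 CPM in Vehicle, and all 5 were called lower. Acta2, smooth muscle actin, was at 2715 to 3985 CPM in EPO and 8657 to 12676 CPM in Vehicle, with Tagln at 1641 to 2728 and 4194 to 5846 CPM and Myh11 at 927 to 1825 and 4359 to 6195 CPM. Tagln shares 1241 exon bases with a gene model on the opposite strand, so its count is uncertain. The part of the smooth muscle markers in the Ccn3 difference was not tested.

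Ccn4, formerly Wisp1, was named as a gene induced by Wnt1 and is made by fibroblasts and bone-forming cells (ENSMUSG00000005124, chromosome 15, 66891320 to 66923201). It had 3617, 3811 and 3479 counts in EPO 1, 2 and 3, against 229, 272 and 391 counts in Vehicle 1, 2 and 3. On the scaled level this was 101, 129 and 105 CPM in EPO 1, 2 and 3, against 9.95, 10.6 and 13.5 CPM in Vehicle 1, 2 and 3. All 3 EPO libraries lay far above all 3 Vehicle libraries, with the lowest EPO value at 101 and the highest Vehicle value at 13.5 CPM. The log2 fold change was 3.30 (SE 0.18), and it ran from 3.18 to 3.44 over the 14 alternatives of scaling, filter, test and libraries. Fibroblast collagens were higher in the same libraries, with Col1a1 at 22753 to 29393 CPM in EPO and 2899 to 4006 CPM in Vehicle, and Col3a1 at 14892 to 23015 and 3031 to 4238 CPM. Dcn, the gene of decorin, another fibroblast product, was not called, at 1450.5 to 1556 CPM in EPO and 1600 to 1723 CPM in Vehicle. Over the whole list of 7 fibroblast genes, 3 were called higher and 0 lower, and the sum was 43353 to 55963 CPM in EPO and 8940 to 11620 CPM in Vehicle. Col1a1 and Col3a1 made up most of this sum in every library. Cartilage genes moved too, with 4 of the 5 tested called higher, 0 lower and a sum of 483 to 790.2 CPM in EPO and 103 to 201 CPM in Vehicle. Comp, a matrix protein of cartilage and tendon, was at 299 to 616 CPM in EPO and 66.1 to 154 CPM in Vehicle, and Acan, aggrecan, at 149 to 181 and 27.3 to 39.2 CPM. Col2a1, the defining collagen of cartilage, was at 4.60, 5.06 and 19.4 CPM in EPO 1, 2 and 3, against 7.69, 14.7 and 6.0 CPM in Vehicle 1, 2 and 3, which overlap. The part of these cell types in the Ccn4 difference was not tested.

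Ccn5, formerly Wisp2, lacks the C-terminal cystine knot domain that the other CCN proteins carry and can oppose Ccn2 (ENSMUSG00000027656, chromosome 2, 163820861 to 163833146). It stood at 635, 308 and 240 CPM in EPO 1, 2 and 3, against 200.3, 199 and 209 CPM in Vehicle 1, 2 and 3. The groups did not overlap, but EPO 1 was far above the other EPO libraries, and EPO 3 was near the highest Vehicle value. The log2 fold change was 0.96 (SE 0.34) with all libraries, 0.42 without EPO 1 and 0.25 without EPO 1 and EPO 2. Without EPO 3 it was 1.22. The macrophage sum ran in the same order over the EPO libraries, at 5262, 3213 and 2834 CPM in EPO 1, 2 and 3, but was 1280, 2509 and 2652 CPM in Vehicle 1, 2 and 3, where Ccn5 stayed between 199 and 209 CPM. The sum was led by Lyz2 at 2146 to 4063 CPM in EPO and 954 to 2174 CPM in Vehicle. In that list Cd68 was at 167 to 456 CPM in EPO and 77.5 to 150.1 CPM in Vehicle, Csf1r at 200.2 to 337 and 137 to 206 CPM, and 1 of 5 genes was called higher and 0 lower. Their part in the Ccn5 values was not tested.

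Ccn6, formerly Wisp3, is known from a human disorder of cartilage and bone (ENSMUSG00000062074, chromosome 10, 39150970 to 39163794). It had 1, 2 and 4 counts in EPO 1, 2 and 3, against 3, 3 and 5 counts in Vehicle 1, 2 and 3, which is too few for the fit. Its 482 exon bases shared with Tube1 on the opposite strand make even these counts uncertain, since the strand setting is not known. No difference was detectable at this depth.

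**Figure D2:**
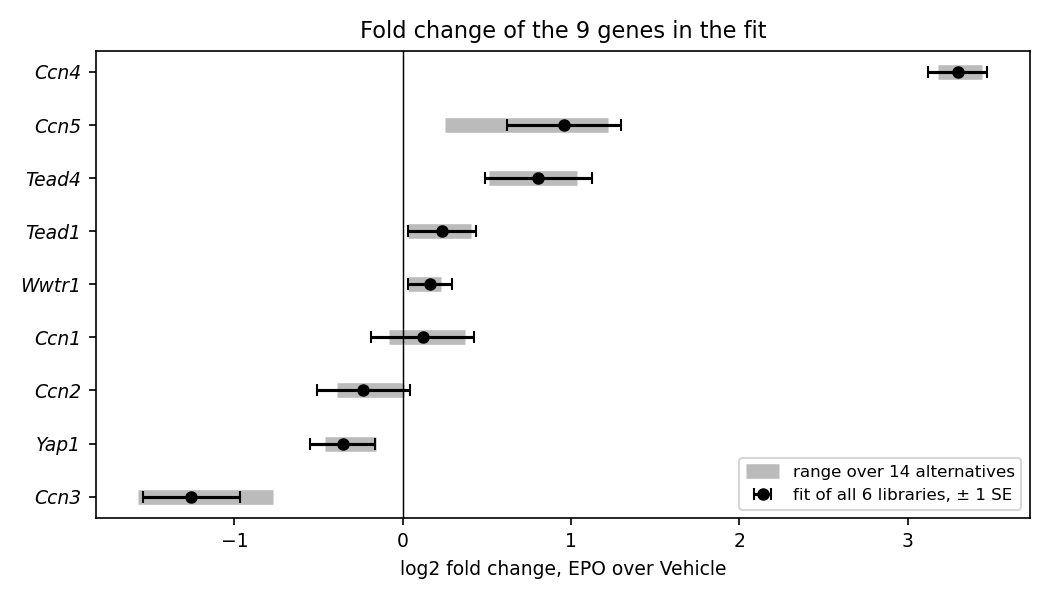
Log2 fold change of EPO over Vehicle for the 9 genes in the fit (points, bars ± 1 SE) with the range over 14 alternative settings (grey). The range is 3.18 to 3.44 for Ccn4 and lies below 0 for Ccn3 and Yap1, while those of Ccn1 and Ccn2 include 0.

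Yap1 and Wwtr1 encode the coactivators YAP and TAZ. Yap1 (ENSMUSG00000053110, chromosome 9, 7931999 to 8004596) stood at 81.3, 129 and 130.2 CPM in EPO 1, 2 and 3, against 152, 140.2 and 144 CPM in Vehicle 1, 2 and 3. All EPO values lay below all Vehicle values, with EPO 1 lowest, and the log2 fold change was -0.36 (SE 0.19) with all libraries and -0.17 without EPO 1. Wwtr1 (ENSMUSG00000027803, chromosome 3, 57455649 to 57575910) stood at 128, 155 and 124 CPM in EPO 1, 2 and 3, against 128, 121 and 115 CPM in Vehicle 1, 2 and 3. These values overlap, and the log2 fold change was 0.16 (SE 0.13).

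Tead1 and Tead4 encode factors that carry YAP and TAZ to DNA. Tead1 (ENSMUSG00000055320, chromosome 7, 112679318 to 112906807) stood at 52.2, 90.2 and 72.2 CPM in EPO 1, 2 and 3, against 68.6, 55.6 and 58.4 CPM in Vehicle 1, 2 and 3. EPO 1 was the lowest and EPO 2 the highest of the 6, and the log2 fold change was 0.23 (SE 0.20), or 0.41 without EPO 1. Tead4 (ENSMUSG00000030353, chromosome 6, 128224288 to 128300823) was rare, at 4.27, 7.57 and 4.75 CPM in EPO 1, 2 and 3, against 4.22, 2.49 and 2.79 CPM in Vehicle 1, 2 and 3. Its groups did not overlap, but EPO 1 and Vehicle 1 were nearly equal, and the log2 fold change of 0.80 (SE 0.32) was 0.51 without EPO 2. Tead4 is expressed in developing muscle. The skeletal muscle sum was also highest in EPO 2 but, unlike Tead4, was higher in EPO 1 than in EPO 3. In that list Acta1, skeletal actin, was at 376, 1168 and 102 CPM in EPO 1, 2 and 3, against 2.02 to 2.78 CPM in Vehicle. The part of muscle in the Tead4 values was not tested.

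Levels of different genes were compared as CPM per kb of summed exon length, and the CCN orders are those of the group means. In EPO the order of the CCN genes was Ccn2 (317 ± 103 CPM per kb), Ccn5 (205 ± 110), Ccn3 (149 ± 56.8), Ccn1 (142 ± 49.5), Ccn4 (20.1 ± 2.78) and Ccn6 (0.051 ± 0.033). In Vehicle it was Ccn2 (372 ± 60.5 CPM per kb), Ccn3 (355 ± 49.4), Ccn1 (131 ± 33.9), Ccn5 (105 ± 2.67), Ccn4 (2.04 ± 0.34) and Ccn6 (0.099 ± 0.021). The ranges of mean ± SD of neighbours overlapped among the first 4 genes in EPO, and between Ccn2 and Ccn3, and Ccn1 and Ccn5, in Vehicle. Summed over the 6 genes, the family stood at 832 ± 93.4 CPM per kb in EPO and 966 ± 93.6 CPM per kb in Vehicle.

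Within that sum the make-up differed. Ccn3 took 17.6% ± 5.22 of the family's CPM per kb in EPO and 37.0% ± 5.48 in Vehicle (SD, n = 3). Ccn4 took 2.42% ± 0.28 in EPO and 0.21% ± 0.019 in Vehicle, so with either treatment it was a minor member. Ccn5 took 45.5%, 18.2% and 14.0% in EPO 1, 2 and 3, against 10.3% to 12.0% in Vehicle, so Ccn5 was the leading member in EPO 1 and in no other library. In EPO 2 Ccn5 lay below Ccn1 (19.7%), and in EPO 3 below Ccn3 (23.3%) and Ccn1 (18.7%). Its place above Ccn3 and Ccn1 by mean in EPO rested on EPO 1. Ccn2 took 37.4% ± 8.80 in EPO and 38.4% ± 3.35 in Vehicle.

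Among the regulators, Wwtr1 was higher than Yap1 per length in each of the 6 libraries. Wwtr1 stood at 28.4 ± 3.59 CPM per kb in EPO and 25.4 ± 1.42 in Vehicle, and Yap1 at 12.3 ± 3.03 and 15.7 ± 0.65. Of their sum, Yap1 took 24.7% to 35.2% in EPO and 37.5% to 39.3% in Vehicle. Tead1 stood at 5.27 ± 1.40 CPM per kb in EPO and 4.49 ± 0.50 in Vehicle, above Tead4 at 1.54 ± 0.50 and 0.88 ± 0.26. Summed exon length joins all annotated isoforms, so these orders hold only for that measure of length.

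**Figure D3:**
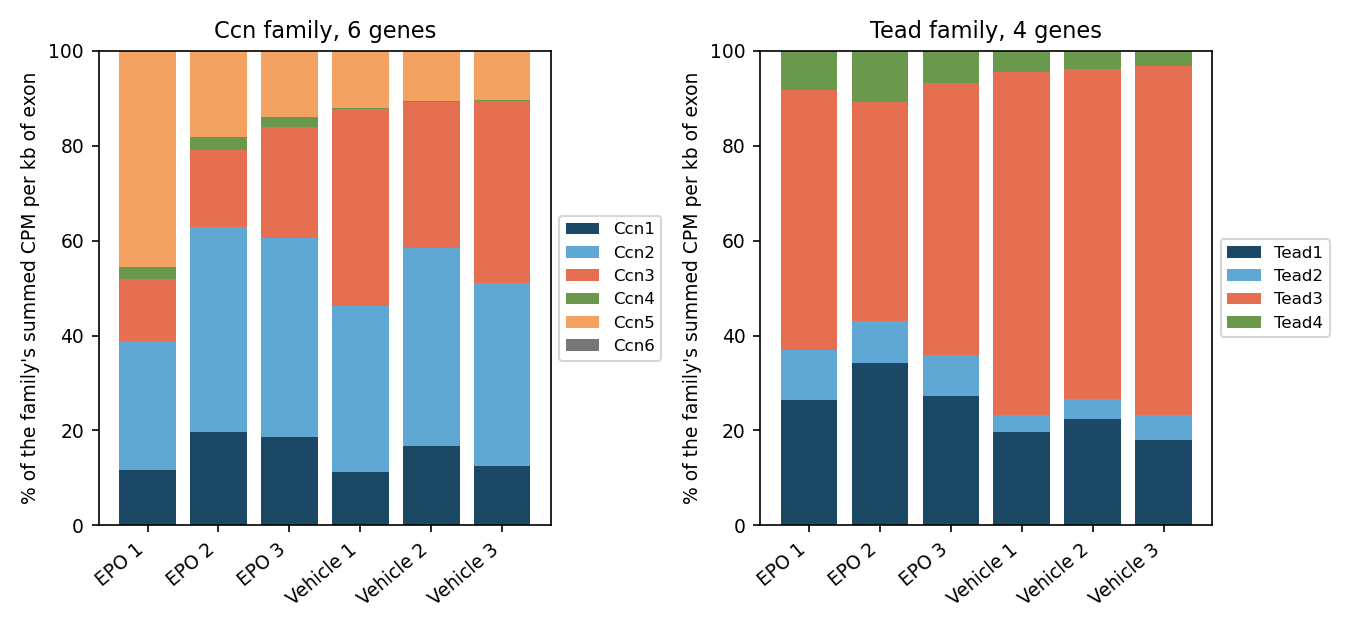
Share of each gene in the summed CPM per kb of exon of the 6 Ccn genes (left) and the 4 Tead genes (right), 1 bar per library with EPO left of Vehicle. Ccn3 takes 13.0% to 23.3% of its family in EPO and 30.9% to 41.5% in Vehicle, and Tead3 takes 46.0% to 57.4% and 69.5% to 73.5%.

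The remaining TEAD factors and the Vgll cofactors, which compete with YAP for TEAD, are not among the 10 genes and were tested. Of 6 such genes 5 entered the fit, of which 2 were called higher and 1 lower, beside 12.9% and 10.1% of all genes, and their median log2 fold change was 0.07, beside 0.01 over all genes tested. Tead3, the TEAD gene of highest level per length in each library (53.5, 59.8 and 75.5 CPM in EPO 1, 2 and 3, against 125, 85.7 and 118 CPM in Vehicle 1, 2 and 3), fell, with a log2 fold change of -0.80 (SE 0.19, edgeR adjusted p = 0.0238). Tead2, at a low level, rose, with 7.31, 8.22 and 8.18 CPM in EPO 1, 2 and 3, against 4.48, 3.85 and 5.87 CPM in Vehicle 1, 2 and 3 (log2 fold change 0.74, SE 0.21, edgeR adjusted p = 0.0447). Neither gene's groups overlapped. Per length Tead3 took 52.7% ± 5.99 of the 4 TEAD genes in EPO and 71.7% ± 2.04 in Vehicle, and Tead1 took 29.3% ± 4.33 and 20.0% ± 2.16. Both calls were close to the threshold. Tead3 missed it without EPO 2, Vehicle 1 or Vehicle 3 (edgeR adjusted p = 0.0708, 0.0876 and 0.0689). Tead2 missed it without EPO 2, EPO 3, Vehicle 1 or Vehicle 2 (edgeR adjusted p = 0.108, 0.0999, 0.156 and 0.153). Tead2 missed it too with library size alone, no filter or the replicate block (edgeR adjusted p = 0.0664, 0.0554 and 0.0655). Vgll4, a repressor of YAP activity on TEAD, was at 55.1 to 62.7 CPM in EPO and 47.0 to 64.2 CPM in Vehicle (log2 fold change 0.07, SE 0.14, edgeR adjusted p = 0.774). Vgll2, a cofactor of skeletal muscle, rose, at 4.02, 12.2 and 0.42 CPM in EPO 1, 2 and 3, against 0.10 to 0.26 CPM in Vehicle, in the same order as the skeletal muscle sum (log2 fold change 4.89, SE 1.18, edgeR adjusted p = 0.0243). Its log2 fold change was 3.58 without EPO 2 and 1.18 without both EPO 1 and EPO 2 (edgeR adjusted p = 0.359), and limma-voom gave 3.82 (adjusted p = 0.159). It also missed the threshold without EPO 2 (0.0516), Vehicle 1 (0.0827), Vehicle 2 (0.0843) or Vehicle 3 (0.0757), and the part of muscle in it was not tested.

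Hippo kinases restrain YAP and TAZ, and the upstream regulators listed with them include both activators and inhibitors of these kinases. Of 25 such genes, all in the fit, 4 were called higher and 0 lower, beside 12.9% and 10.1% of all genes, and their median log2 fold change was 0.04. The final kinases of the pathway showed no difference beyond the spread: Lats1 was at 40.7 to 53.3 CPM in EPO and 42.6 to 51.4 CPM in Vehicle (log2 fold change -0.01, SE 0.14, edgeR adjusted p = 0.976), and Lats2 at 76.2 to 88.6 and 80.3 to 93.0 CPM (-0.08, SE 0.12, 0.648). Lats2 shares 2955 exon bases with a gene model on its own strand, so its count is uncertain. The same holds for Rassf1, named below, which shares 2496 with a model on the opposite strand. Ajuba, a LIM protein that binds and inhibits LATS kinases, rose to 34.0 ± 4.82 CPM in EPO, against 18.3 ± 2.02 CPM in Vehicle (log2 fold change 0.89, edgeR adjusted p = 0.00748). Map4k4, a kinase that can activate LATS, rose to 319.7 ± 58.4 CPM in EPO, against 175 ± 8.70 CPM in Vehicle (0.87, edgeR adjusted p = 0.00981). The 2 other calls, Rassf1 (0.52, edgeR adjusted p = 0.0410) and Stk4, the kinase MST1 (0.38, edgeR adjusted p = 0.0451), were both lost without EPO 2, EPO 3, Vehicle 1, Vehicle 2 or Vehicle 3 (adjusted p from 0.0558 to 0.182). Rassf1 and Stk4 were also lost with library size alone, no filter or the replicate block (edgeR adjusted p from 0.0584 to 0.103). Stk4 was lost too with DESeq2 size factors (edgeR adjusted p = 0.0504) and limma-voom (adjusted p = 0.0520). Without EPO 1, 5 of the list were called higher and 2 lower, and without any other single library 2 were called, both higher.

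Other genes known as targets of YAP moved both ways. Of 20, 4 were called higher and 3 lower, beside 12.9% and 10.1% of all genes, and the list's log2 fold changes had a median of 0.05. Igfbp3, a binding protein for insulin-like growth factors, rose most, at 319, 426 and 136 CPM in EPO 1, 2 and 3, against 13.7 to 16.0 CPM in Vehicle (log2 fold change 4.27, SE 0.41, edgeR adjusted p = 0.00196). Nuak2, a kinase related to AMPK, rose to 20.7 ± 5.79 CPM in EPO, against 8.30 ± 0.95 CPM in Vehicle (1.32, edgeR adjusted p = 0.00712). F3, tissue factor, which starts coagulation, fell to 73.6 ± 22.8 CPM in EPO, against 173 ± 17.4 CPM in Vehicle (-1.23, edgeR adjusted p = 0.00879). Arhgef17 fell to 156 ± 4.56 CPM in EPO, against 275 ± 43.2 CPM in Vehicle (-0.82, edgeR adjusted p = 0.00957). Without Vehicle 1 or Vehicle 2 only 4 of the 20 were called, 2 in each direction. Lats2, Amotl2 and Ptpn14 stand in this list and among the Hippo regulators and were called in neither, and Tgfb2 is also in the list of TGF-beta genes.

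SRF and its coactivators also drive Ccn1 and Ccn2. Of 4 genes, 2 were called lower and 0 higher, beside 10.1% and 12.9% of all genes, and the median of the 4 log2 fold changes was -0.32. Srf fell to 101 ± 1.58 CPM in EPO, against 157 ± 15.3 CPM in Vehicle (log2 fold change -0.63, edgeR adjusted p = 0.0109), and Myocd, the coactivator of contractile smooth muscle genes, to 7.59 ± 0.31 CPM in EPO, against 20.2 ± 2.94 CPM in Vehicle (-1.41, edgeR adjusted p = 0.00262). Smooth muscle markers fell in the same libraries, as given beside Ccn3. The actin-regulated coactivators Mrtfa and Mrtfb had log2 fold changes of 0.31 and 0.00 (edgeR adjusted p = 0.298 and 0.996).

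Signals that induce CCN genes were tested as 2 lists. Of 9 TGF-beta genes, 3 were called higher and 0 lower, beside 12.9% and 10.1% of all genes, and the median log2 fold change was 0.26. The ligand Tgfb1 rose to 171 ± 27.8 CPM in EPO, against 98.8 ± 14.8 CPM in Vehicle (log2 fold change 0.79, edgeR adjusted p = 0.0163), its receptor Tgfbr2 to 381 ± 54.3 CPM, against 233 ± 17.7 CPM (0.71, edgeR adjusted p = 0.0169), and the signal carrier Smad3 to 63.4 ± 6.09 CPM, against 31.7 ± 2.41 CPM (0.999, edgeR adjusted p = 0.00306). Tgfb1 missed the threshold without Vehicle 1 (0.0814) or Vehicle 2 (0.0704), and Tgfbr2 without Vehicle 1 (0.0814) or Vehicle 3 (0.0633), and without Vehicle 1 only 1 of the 9 was called. Without EPO 1, 5 were called higher and 1 lower. Of 9 genes that Wnt signalling through beta-catenin induces, 7 entered the fit, and 2 were called higher and 2 lower (12.9% and 10.1% of all genes). Their median of 0.96 is the value of Rnf43, which was not called and whose groups overlapped. Rnf43 had only 58 counts summed over EPO and 23 over Vehicle, so this median does not describe the list. Nkd2 rose to 21.1 ± 4.66 CPM in EPO, against 5.61 ± 1.09 CPM in Vehicle (1.91, edgeR adjusted p = 0.00277), while its relative Nkd1 fell to 31.0 ± 10.9 CPM, against 101 ± 18.6 CPM (-1.70, edgeR adjusted p = 0.00535); both are inhibitors of the pathway. Tcf7, a transcription factor, rose (1.28, edgeR adjusted p = 0.0248, and 0.0701 to 0.0879 without a Vehicle library) and Znrf3, which removes Wnt receptors, fell (-0.86, edgeR adjusted p = 0.0113). Axin2, the most used readout of the pathway, was at 5.16 to 8.12 CPM in EPO and 8.45 to 11.0 CPM in Vehicle (-0.56, edgeR adjusted p = 0.105), and was picked out here with its value known.

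Of 13 receptors and coreceptors of CCN proteins, all in the fit, 3 were called higher and 0 lower, and the median log2 fold change was 0.23. Called in either direction were 3 of 13, near the 23% of all genes tested. Igf2r, a receptor that takes up growth factors and lysosomal enzymes, rose to 230.2 ± 32.4 CPM in EPO, against 117 ± 3.00 CPM in Vehicle (log2 fold change 0.98, edgeR adjusted p = 0.00451). Itga6, the alpha chain of a laminin receptor that also binds Ccn1, rose to 84.9 ± 31.5 CPM, against 29.4 ± 8.62 CPM (1.53, edgeR adjusted p = 0.0122, and 0.0553 without Vehicle 1). Itgb2, the beta chain of leukocyte integrins, rose to 197 ± 61.5 CPM, against 107 ± 23.6 CPM (0.87, edgeR adjusted p = 0.0443). Itgb2 missed the threshold without EPO 1, EPO 3, Vehicle 1, Vehicle 2 or Vehicle 3 (edgeR adjusted p from 0.0532 to 0.159). With the replicate block Itgb2 missed it too (edgeR adjusted p = 0.0976). Of the macrophage genes given beside Ccn5, 1 of 5 was called higher, and their part was not tested. DESeq2 called 6 of the 13 higher and 1 lower, and an edgeR fit with no filter called 5 and 1.

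**Figure D4:**
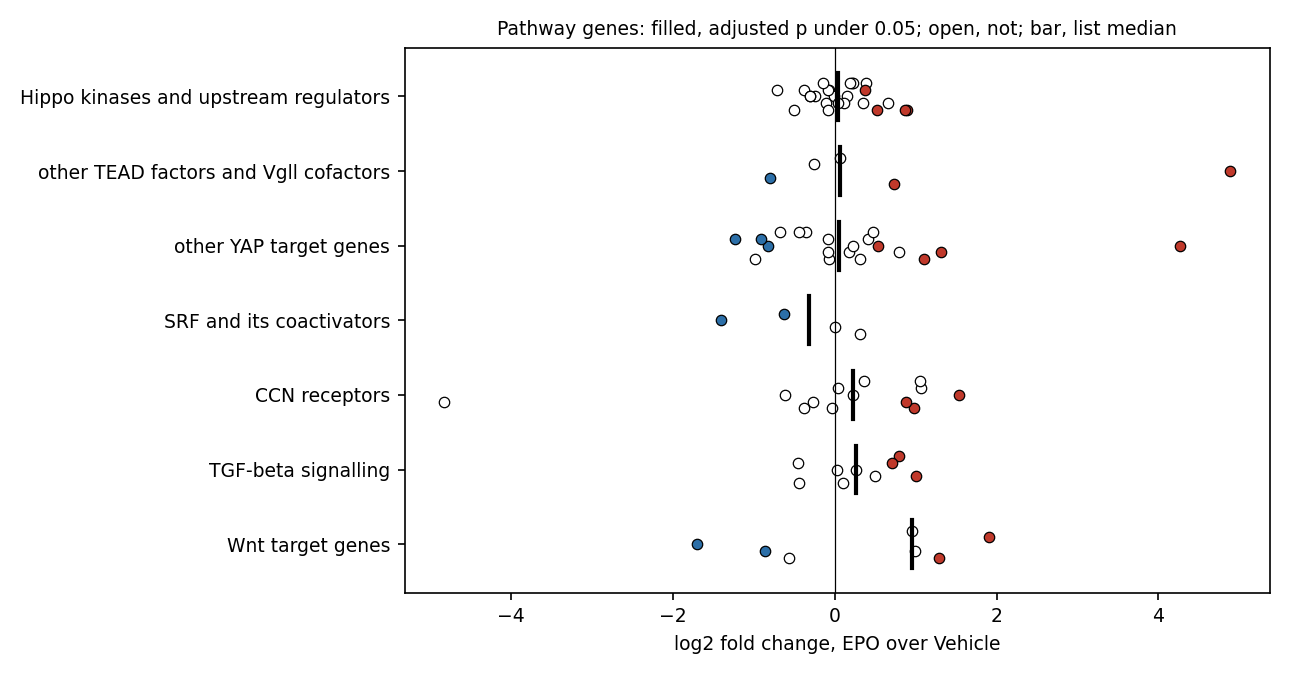
Log2 fold change of EPO over Vehicle for every tested gene of the 7 pathway lists (1 point per gene, filled where the edgeR adjusted p was under 0.05, red higher and blue lower), with a bar at the list median. The medians of the Hippo, TEAD and YAP target lists lie at 0.04, 0.07 and 0.05, with called genes on both sides of 0 in the last 2.

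To place the CCN genes among all others, the 2 tested genes of nearest pattern were found for each, by the root mean square difference between log2 CPM profiles over the 6 libraries, each centred on its mean. Nearest to Ccn4 were Ptk7 (0.16) and Thbs2 (0.16), whose log2 fold changes were 3.34 and 3.41. Nearest to Ccn3 were Fam124a (0.071) and Cdc42ep3 (0.12), and nearest to Ccn5 were Lrp1 (0.093), a receptor of the list above, and Twf2 (0.10). Ccn2 had Twistnb (0.085) and Klf6 (0.093), and Ccn1 had Kpna4 (0.14) and Mis12 (0.14). With 6 libraries that fall into 2 groups, such likeness is a description of these libraries and carries no test.

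Of the other marker lists, 3 of 5 adipocyte genes were called lower and 0 higher, with a sum of 1328 to 1458 CPM in EPO and 1896 to 4907 CPM in Vehicle, led by Fabp4. Endothelial genes were called in both directions, 2 higher and 1 lower of 5, with a sum of 939 to 1412 CPM in EPO and 1248 to 1372 CPM in Vehicle, led by Pecam1. The sum of 4 Schwann cell genes was 22.7 to 28.3 CPM in EPO and 41.2 to 59.2 CPM in Vehicle, and that of 5 red cell genes, which overlapped, 491 to 1462 CPM in EPO and 758 to 1547 CPM in Vehicle. No gene of the 9 marker lists was at 0 counts over a whole group.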

How the data were processed

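Per the labels, libraries were made with the NEBNext Ultra kit and sequenced as paired ends. Per the submitters' processing notes, CASAVA 1.8 and TopHat2 2.0.6 and the build mm10 were used. How reads were counted, and with which strand setting, is not given in the sources used here. As deposited, the values are raw counts per gene, whole numbers with totals that differ between libraries. Columns abbreviated Con were read as Vehicle, and all 6 were used. IDs were named through GENCODE M21 (GRCm38), which matched 47224 of 47643. Symbols and promoter sequences come from GENCODE and RefSeq (GRCm38.p6).

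Genes were filtered with filterByExpr, scaled by TMM and tested with edgeR 4.0.16 (R 4.3.3; quasi-likelihood test, two-sided, group as the only term, Benjamini-Hochberg over the 16522 genes tested). The filter removed 31121 genes, and the common biological coefficient of variation was 0.244. SEs were taken from the fold change and the F statistic. Pattern likeness used log2 CPM with 2 as prior count. The procedure was also run on simulated counts. They held no outlying library and no difference in tissue make-up, so that run supports no result given here.

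The 10 genes and all lists were chosen with earlier results of these data known. By the rule for named genes the text names all 10 and, from each pathway list, up to 4 called genes of smallest p. Also named are Tead2, Tead3, Lats1, Lats2, Vgll4, Srf and Myocd, and the 2 genes of nearest pattern with a mean of at least 10 CPM. Of a marker list at most the 3 most abundant are named. For skeletal muscle, adipocytes and endothelium only the most abundant is named, and for Schwann and red cells none. Mrtfa, Mrtfb, Axin2 and Rnf43 fall outside the rule and were chosen after their values were seen. Amotl2, Ptpn14 and Tgfb2 are named for standing in 2 lists, and Gm15270 and Tube1 for shared exons. Alternatives were other scalings and filters, DESeq2 1.42.0, limma-voom (limma 3.58.1), the replicate block and libraries left out.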

Additional observations from a re-analysis of the deposited data

How the results depend on the processing

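Over 14 alternatives the log2 fold change kept its sign for Ccn3, Ccn4, Ccn5, Yap1, Wwtr1, Tead1 and Tead4, and for Ccn1 in 11 and Ccn2 in 12. It moved by more than the pooled SD between libraries of a group for Ccn5 without EPO 1 (0.42) and for Ccn5 (0.25) and Ccn3 (-0.77) without both EPO 1 and EPO 2, and in no other case among the 9 genes. Of all genes, 3804 were called with all libraries, 1548 without both EPO 1 and EPO 2, and 1635 to 4281 with a single library left out. Without both EPO 1 and EPO 2, the called genes numbered 0 of the TEAD and Vgll list, 1 of SRF and its coactivators, 1 of the CCN receptors and 1 of the TGF-beta genes. With a single library left out they numbered 2 to 7 of the Hippo list, 0 to 3 of the TEAD and Vgll list, 4 to 9 of the YAP targets, 1 to 4 of the CCN receptors and 1 to 6 of the TGF-beta genes. With no filter, 2 Hippo genes and 6 CCN receptors were called, and with DESeq2 7 CCN receptors. The sign of Lats1 turned without both EPO 1 and EPO 2 (0.012), EPO 1 (0.079) or Vehicle 2 (0.037), with -0.100 to 0.079 over single libraries left out, and that of Vgll4 without Vehicle 3 (-0.058; -0.058 to 0.13 over single libraries). The cause of these changes was not tested. Deviations of same-numbered libraries from their group means had correlations of -0.009, -0.010 and 0.13 over all genes. With 3 libraries a group, these values cannot decide whether the replicate numbers pair the libraries. With the replicate block 2884 genes were called, and 2 of the Hippo list. Fits that keep 1 EPO library assume that it varies like the Vehicle libraries. With 3 libraries a group, small changes can be missed, and Ccn6 is below what these depths can compare.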
